A study of Tachysurus vachellii and Tachysurus fulvidraco x Tachysurus vachelli and Tachysurus fulvidraco with 9 samples.

Results

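The hybrid catfish Huangyou-1 was set against its maternal species, the yellow catfish Pelteobagrus fulvidraco, by poly(A) RNA sequencing of juvenile liver. The comparison used 6 of the 9 libraries of the series, 3 of the hybrid and 3 of P. fulvidraco, as grouped in the sample labels. The hybrid came from P. fulvidraco eggs and P. vachelli sperm, and P. fulvidraco from eggs and sperm of its own species. The other 3 libraries are of the paternal species, the darkbarbel catfish P. vachelli, whose levels stand beside the results as a reference. Apart from the gene sema4e, no test against them is given here. All lines hatched at 28 °C in flow-through water and took live Artemia nauplii before compound feed. Each line of 600 juveniles was kept in 3 aquaria of its own, 200 fish to 700 L, so that line and aquarium cannot be told apart. No label tells whether the RNA of a library was from a single fish or from several, nor fish age or sex. The p-values therefore rest on how far these libraries differ from each other within a line, and that spread may be technical.

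The liver makes the proteins of blood plasma, stores and releases sugar and fat, breaks down amino acids, and makes bile acids from cholesterol. Secreted proteins fold in the endoplasmic reticulum with the help of chaperones, whose genes respond to the load of unfolded protein. In egg-laying females the liver also makes vitellogenin, the precursor of egg yolk, under the control of estrogen. A first-generation hybrid carries a nuclear genome from each parent and the mitochondria of its mother.

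Values were deposited as TPM, a transcript's share of its library corrected for transcript length, for 57710 assembled transcript rows. A row was tested where 3 or more of the 9 libraries held it at 1 TPM or above, which kept 51225 rows, and those that carry the same gene symbol were also summed, which gave 10775 symbols. Levels below are summed TPM per symbol, given for hybrid 1, 2 and 3 and for P. fulvidraco 1, 2 and 3 in that order, unless a row is named. Differences are hybrid minus P. fulvidraco on the log2(TPM + 1) scale with their standard error, which understates the change of genes of low level, and a gene was called at a limma adjusted p under 0.05. A ± after a P. vachelli level is the SD over n = 3 libraries. In whole liver, fewer cells of a type and less RNA per cell cannot be told apart.

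Read depth is unknown, since TPM do not keep it. The number of rows at 1 TPM or above ran from 36107 to 41016 per library. Over symbols, the first principal component of the 6 libraries held 54.8% of the variance and separated the groups. On the second, with 14.2%, hybrid 3 (-27.4) and P. fulvidraco 3 (-14.5) lay apart from the other libraries of their groups, at 17.9 and 10.3 in the hybrid and at 11.4 and 2.38 in P. fulvidraco. In P. fulvidraco 1, 2 and 3 the 4 vitellogenin rows made up 5.08%, 1.88% and 0.00549% of all TPM, and in a hybrid library 0.000129% or less. The 3 P. fulvidraco libraries thus differed among themselves in a liver product of maturing females, so several gene groups are given also without P. fulvidraco 1 and 2. Members of other groups lost calls in that fit too, and the counts of those groups in it are not given. Among them are amino acid breakdown, coagulation, complement, antioxidant enzymes and the growth hormone axis. In that fit P. fulvidraco is 1 library, assumed to vary like the other groups, and 146 of 294 called symbols among the gene lists and named genes kept their call. In 71 of the 294 the levels of P. fulvidraco 1, 2 and 3 ran in the order of the vitellogenin share where the hybrid was lower, or in the reverse order where it was higher, and 48 of these lost their call in that fit. Among the 48 are ass1, OTC, Hgd, cdo1, Lpin2, Gpx3, GHR, CFB, Abcg8, etf1, hpx, COL1A1 and PLA2G1B, which are described below (adjusted p = 0.0606 to 0.559). By their selection the 71 have P. fulvidraco 3 on the hybrid's side of its group. Leaving out P. fulvidraco 1 and 2 therefore had to weaken their differences, so the lost calls cannot show a link to vitellogenin. The share of all symbols in such an order was not counted. The part of the difference in vitellogenin in these results was not tested.

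The hybrid differed from P. fulvidraco in 21.8% of rows, with 6095 rows higher (11.9%) and 5059 lower (9.88%) of 51225. Per symbol, 1148 of 10775 were higher (10.7%) and 1524 lower (14.1%), 24.8% in either direction. These shares, of the fit with all 9 libraries, are the background against which each gene group below is read. Fits that left out a library called fewer symbols in all, so list counts in them have a lower background. For example, 931 symbols were lower without hybrid 2 and 937 without P. fulvidraco 2. Most differences were small: 418 symbols were higher and 260 lower by 1 or more on the log2 scale, and the median difference over all symbols was -0.05. Without P. fulvidraco 1 and 2 the calls came to 484 higher and 507 lower. Over symbols, Spearman's rho was 0.877 to 0.898 between a hybrid and a P. fulvidraco library, below the 0.938 to 0.948 within the hybrid and the 0.940 to 0.960 within P. fulvidraco; these are values across genes, which are not independent replicates.

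**Figure D1:**
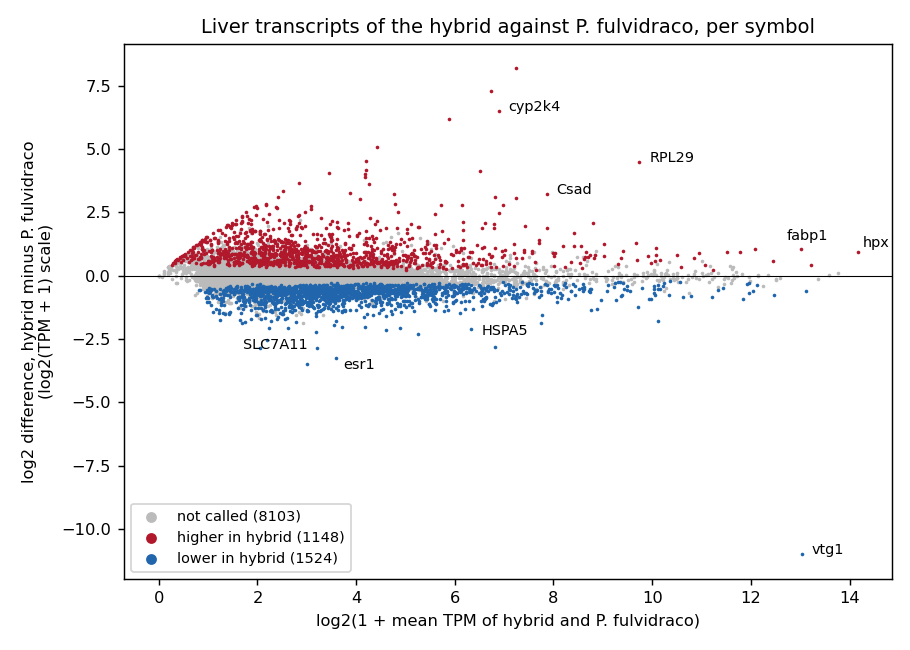
Each point is a gene symbol: the x axis is log2(1 + mean TPM of both groups), and the y axis is the log2 difference, hybrid minus P. fulvidraco. Red points are the 1148 symbols called higher and blue points the 1524 called lower, with vitellogenin (vtg1) far below the rest.

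Some rows were listed at 0 in all libraries of one parental species and at 5 TPM or more in those of the other. Whether they are a species' own form of a shared transcript or genes expressed in 1 species was not tested. Of rows at 0 in every P. vachelli library and at 5 TPM or more in each P. fulvidraco library, 763 in number, the median ratio of the hybrid to P. fulvidraco mean was 0.466, with quartiles of 0.357 and 0.597. The 704 rows at 0 in every P. fulvidraco library and at 5 TPM or more in each P. vachelli library stood in the hybrid at a median of 0.372 of the P. vachelli mean, with quartiles of 0.249 and 0.498, and 14 of them were listed at 0 in the hybrid. Rows at 5 TPM or more in each library of both parents, 6734 in all, had a median ratio of the hybrid to P. fulvidraco of 0.918. These ratios are a description with no test.

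**Figure D2:**
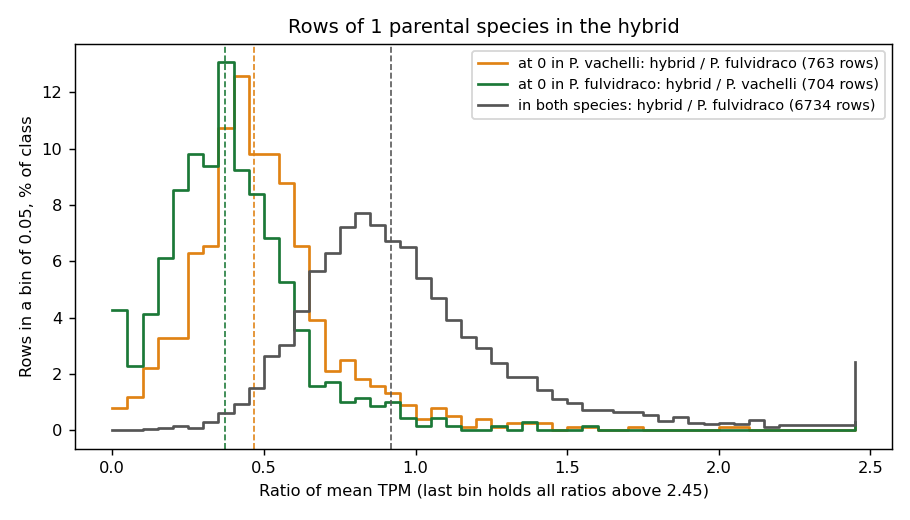
Histograms of the ratio of mean TPM (x axis) as the percentage of rows in each class (y axis), with dashed lines at the medians. Rows at 0 in P. vachelli centre on 0.466 of P. fulvidraco, rows at 0 in P. fulvidraco on 0.372 of P. vachelli, and rows of both species on 0.918 of P. fulvidraco.

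Since the P. fulvidraco level chose these classes, their calls against P. fulvidraco are a description: a row at 0 in P. fulvidraco can only be called higher. Of rows at 0 in P. vachelli 65.8% were called lower in the hybrid, and of rows at 0 in P. fulvidraco 88.4% were called higher, beside 9.88% and 11.9% of all tested rows. The 5 described rows that rose most, among those with at least the median level and groups that did not overlap, were at or near 0 in P. fulvidraco: a complement C1q-like protein 2 at 1068, 1277 and 921 TPM beside at most 0.430 TPM for P. fulvidraco, an apolipoprotein B-100-like row at 1031, 1117 and 1137 TPM against at most 1.33 TPM, an uncharacterized protein, a truncated complement factor I and an inter-alpha-trypsin inhibitor heavy chain 4-like row. Their P. vachelli means were 1218 to 3423 TPM. Of the 5 that fell most, 4 were vitellogenin rows, and the other was described as an H-2 class I TLA-like antigen, at 1.61, 0.610 and 2.23 TPM against 42.2, 24.3 and 50.1 TPM. Where parental means per symbol lay within 2-fold of each other at 1 TPM or more, 248 of 7284 symbols were higher and 694 lower. That restriction was chosen after seeing the data.

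Summing per symbol joins only rows that carry the same symbol. The symbol of Apob, the structural protein of very low density lipoprotein, was called lower at 776, 789 and 809.8 TPM against 1403, 1184 and 1393 TPM, yet all 13 rows described as apolipoprotein B-100 summed to 2563, 2702 and 2620.2 TPM against 2863, 2614 and 2929 TPM (difference -0.09 ± 0.07, limma adjusted p = 0.395). Serpina6 and Prss2 were the symbols with the largest rises, at 344, 181 and 103 TPM against 0, 0 and 0.750 TPM, and at 394, 279 and 225 TPM where P. fulvidraco was listed at 0. Their rows are described as serine protease inhibitor 2.1-like and as complement C1s-like. Rows sharing the description of Serpina6 summed to 2248, 1820.0 and 1725 TPM against 2259, 1896 and 1948 TPM, a difference of -0.08 ± 0.11 (limma adjusted p = 0.639). Rows sharing that of Prss2 still differed, at 423, 313 and 253 TPM against 42.0, 41.8 and 24.7 TPM (3.16 ± 0.24, adjusted p = 8.44e-05). Sums per description were chosen after seeing the data and are given below for several named genes whose call they ended.

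In most other large rises P. vachelli stood above the hybrid. The cytochrome P450 gene cyp2k4 measured 193, 189 and 318 TPM against 0.520, 3.23 and 1.52 TPM, with 571 ± 65.5 TPM in P. vachelli (6.49 ± 0.34, adjusted p = 8.56e-06). Dihydropyrimidinase Dpys, which breaks down pyrimidines, was at 128, 173 and 216 TPM against 8.43, 8.20 and 9.45 TPM, with 334 ± 7.54 TPM in P. vachelli (4.13 ± 0.16, adjusted p = 2.53e-06). The groups did not overlap in either gene. The actin regulator brk1, the kinase Cdkl1, neurexin NRXN2, thromboxane synthase TBXAS1 and ribosomal protein RPL29 went the same way, with differences of 3.92 to 6.18. In each, the P. vachelli mean was the highest. For the semaphorin sema4e it was not: the hybrid had 33.3, 30.1 and 37.0 TPM against 2.79 TPM or less in P. fulvidraco (4.19 ± 0.40, limma adjusted p = 0.000251). P. vachelli was lower at 21.7 ± 3.57 TPM, but the difference of the hybrid from P. vachelli was not called (0.61 ± 0.40, limma adjusted p = 0.279). The symbol paxA, whose row is described as an unnamed product, reached 8.54 to 40.2 TPM in hybrid libraries and at most 0.0100 TPM in any library of either parent.

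The largest fall was that of vtg1, vitellogenin, from 36981, 13545 and 35.2 TPM to 0.110, 0.660 and 0.140 TPM (adjusted p = 0.0064). P. vachelli held 0.333 ± 0.310 TPM, so that vitellogenin was a transcript of P. fulvidraco 1 and 2 and, at a much lower level, of P. fulvidraco 3. The estrogen receptor esr1, which switches on vitellogenin in fish liver, divided the P. fulvidraco libraries in the same way. It was at 0.500, 0.340 and 0.820 TPM against 32.2, 30.4 and 1.98 TPM (-3.24 ± 0.79, limma adjusted p = 0.0183). Unlike vtg1, esr1 stood higher in P. vachelli (3.59 ± 1.11 TPM) than in P. fulvidraco 3. Its call was lost without P. fulvidraco 1 (adjusted p = 0.0554), without P. fulvidraco 2 (0.065), without both (0.116) and without hybrid 2 (0.0557). The second receptor esr2 was not called, at 59.7, 56.2 and 77.9 TPM against 56.0, 74.9 and 73.7 TPM. Of 4 measured members of the egg yolk and estrogen list, vtg1 and esr1 were lower and esr2 and the yolk protease ctsd were not called.

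Other large falls included SLC7A11, the cystine importer, at 2.04, 0.440 and 0.900 TPM against 7.08, 14.5 and 24.2 TPM (-2.86 ± 0.46, adjusted p = 0.00309). P. vachelli stood at 3.65 ± 1.74 TPM, and every hybrid library lay below every library of P. fulvidraco. UGT2A3, whose row is described as UDP-glucuronosyltransferase 2C1-like, an enzyme that couples glucuronic acid to lipids and foreign compounds, fell from 226, 239.8 and 124 TPM to 23.8, 23.3 and 32.2 TPM (-2.81 ± 0.24, adjusted p = 0.000165). The joint lubricant proteoglycan Prg4 was at 8.69, 15.4 and 11.2 TPM against 69.1, 42.3 and 76.1 TPM, and at 56.7 ± 27.8 TPM in P. vachelli (-2.31 ± 0.38, adjusted p = 0.00334). The hybrid was thus low in Prg4 beside both parents. The myosin MYO1H, the centrosomal protein Tacc1, the calmodulin relative CALML4 and the bicarbonate transporter Slc4a5 were also lower, by -3.48 to -2.03, and each stood at or below 1.55 TPM in P. vachelli. Slc4a5 varied widely in the hybrid, at 0.0800, 1.67 and 7.35 TPM, and 8 of 21 alternatives lost its call, among them those without hybrid 1, hybrid 2, P. fulvidraco 1 or P. fulvidraco 2 (differences of -2.35 to -1.51). In P. fulvidraco it was at 19.9, 10.2 and 9.36 TPM, the order of the vitellogenin share, and without P. fulvidraco 1 and 2 it differed by -1.84 (adjusted p = 0.259).

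**Figure D3:**
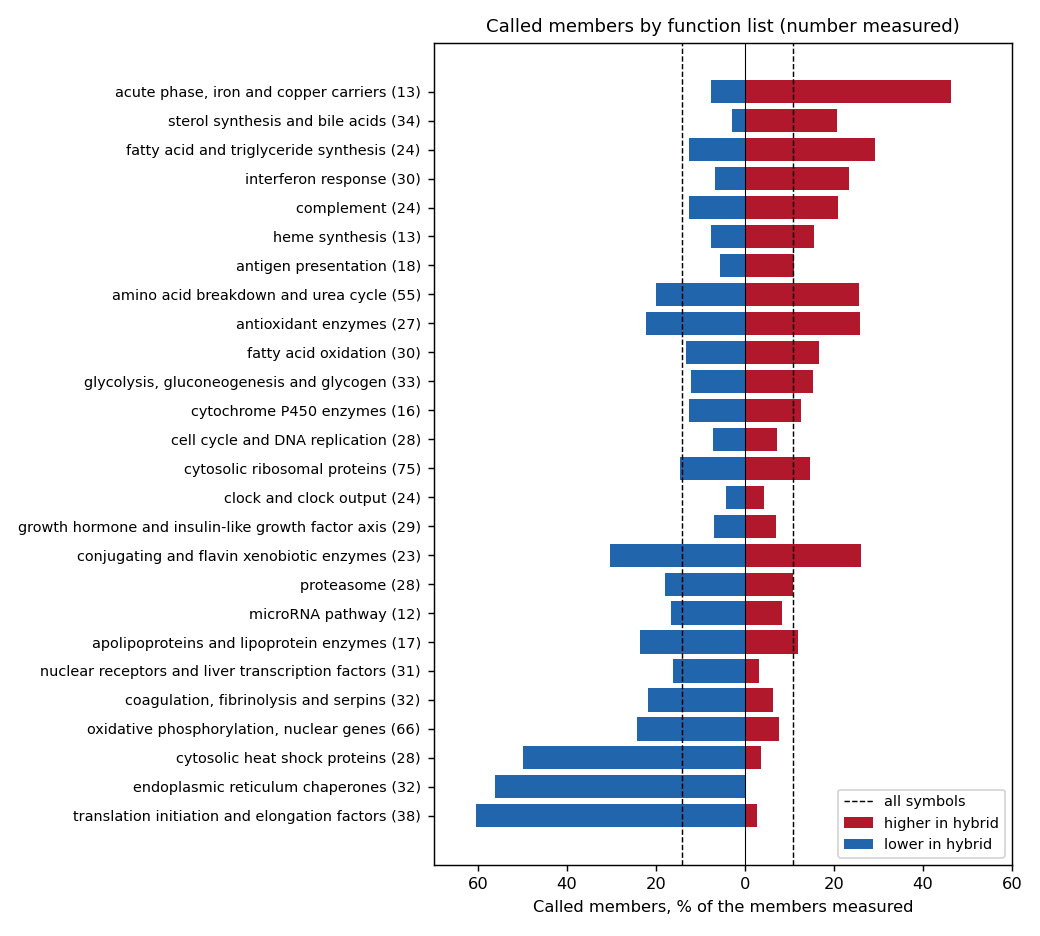
Bars give the percentage of measured members called higher (red, right) and lower (blue, left) in each function list with 10 or more measured members, the number measured in brackets. Dashed lines mark the shares over all symbols, 10.7% higher and 14.1% lower; translation factors, endoplasmic reticulum chaperones and cytosolic heat shock proteins lie farthest to the left.

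Genes for protein folding in the endoplasmic reticulum were lower in the hybrid. Of 32 measured members 18 were lower and 0 higher, 56.2% against 14.1% of all symbols, with a median difference of -0.64 against -0.05 over all symbols. HSPA5, the chief chaperone of this compartment (BiP), stood at 21.9, 34.8 and 29.0 TPM against 184, 137 and 72.5 TPM (-2.08 ± 0.36, adjusted p = 0.00391), a ratio of means of 4.58 in favour of P. fulvidraco. P. vachelli had 70.2 ± 24.6 TPM, so the hybrid was lower than the level of either parent. The HSP90 form of the compartment, HSP90B1, was at 36.7, 38.9 and 38.6 TPM against 115, 84.0 and 53.6 TPM, and at 119 ± 28.4 TPM in P. vachelli (-1.06 ± 0.26, adjusted p = 0.0176). In both genes no hybrid library reached the lowest of P. fulvidraco, and without P. fulvidraco 2 HSP90B1 was not called (adjusted p = 0.057).

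The partners of HSPA5 lay on the same side. The nucleotide exchange factor hyou1 was at 1.26, 1.15 and 1.89 TPM against 7.42, 5.54 and 3.70 TPM (-1.40 ± 0.24, adjusted p = 0.00382). The J proteins DNAJC3, Dnajb9 and Dnajb11, which hand clients to HSPA5, differed by -1.37 ± 0.22, -1.17 ± 0.18 and -0.96 ± 0.16. MANF, a secreted protein released under folding stress, was at 6.68, 5.76 and 7.03 TPM against 24.3, 21.3 and 11.4 TPM, with 29.3 ± 3.44 TPM in P. vachelli (-1.36 ± 0.24, adjusted p = 0.00456). Among disulfide isomerases, which form and rearrange disulfide bonds, Pdia6 fell by 1.11 and P4HB by 0.71 on the log2 scale, P4HB from 195, 213 and 164 TPM to 116, 123 and 108 TPM. PDIA3 was at 357, 325 and 305 TPM against 341, 306 and 307 TPM, a difference of 0.05 ± 0.08 that was not called.

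Other members that fell act in sensing misfolded protein and in its disposal. ATF6, a sensor that turns into a transcription factor, was at 7.63, 6.65 and 6.42 TPM against 14.1, 14.6 and 14.8 TPM (-0.98 ± 0.10, adjusted p = 0.000364). Uggt1, which tags unfolded glycoproteins for another round of folding, stood at 16.9, 15.5 and 17.2 TPM against 37.6, 39.1 and 41.1 TPM (-1.20 ± 0.11, adjusted p = 0.000198). These 2 genes differed little among the P. fulvidraco libraries, and P. vachelli lay at 6.29 ± 0.178 and 8.06 ± 1.04 TPM, at or below the hybrid. SEL1L, HERPUD1 and DERL1, of the machinery that exports misfolded proteins for degradation, fell by 0.83, 0.72 and 0.65 on the log2 scale, and the liver transcription factor creb3l3a by 0.68. The separate symbol CREB3L3 was not called, with a hybrid to P. fulvidraco ratio of means of 0.753. The lectin chaperones went uncalled, CALR at 509, 544 and 486 TPM against 773, 591 and 576 TPM and CANX at 22.7 to 24.7 TPM against 14.9 to 25.4 TPM.

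**Figure D4:**
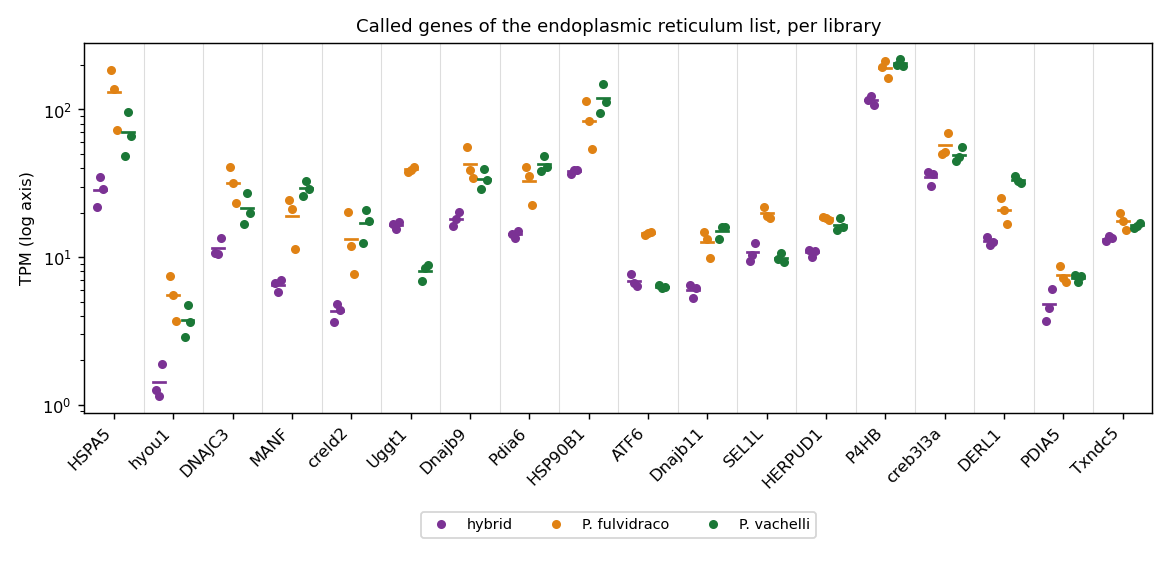
Points are TPM per library on a log axis and bars the means, for the 18 genes of the endoplasmic reticulum list called lower, ordered by difference; purple is the hybrid, orange P. fulvidraco and green P. vachelli. HSPA5 spans 21.9 to 34.8 TPM for the hybrid and 72.5 to 184 TPM for P. fulvidraco, and P. fulvidraco 1, 2 and 3 run downward in many of the genes but not in Uggt1 or ATF6.

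In part of these genes the P. fulvidraco libraries ran in the order of the vitellogenin share. Levels of HSPA5, hyou1, DNAJC3, MANF, creld2, Pdia6 and HSP90B1 were highest in P. fulvidraco 1 and lowest in P. fulvidraco 3, as was the vitellogenin share of TPM, and its part in the difference was not tested. Without P. fulvidraco 1 and 2, 7 members were lower and 1 higher, and the median difference was -0.41. In that fit HSPA5 (-1.34, adjusted p = 0.0772), hyou1 (-0.96, 0.0806), DNAJC3 (-0.97, 0.0686), creld2 (-0.72, 0.153), Pdia6 (-0.62, 0.0606) and HSP90B1 (-0.48, 0.23) were not called, and MANF was (-0.73, 0.0493). Dnajb11, SEL1L and DERL1 lost their calls too (adjusted p = 0.0521 to 0.14). Calls fell over all symbols too in that fit, as given above. Leaving out a single library left 15 to 20 members lower. The list stood at 14 lower of 25 where parental means were within 2-fold of each other, at 17 lower under quantile normalization and under median-ratio scaling, and at 19 lower with TPM rescaled without vitellogenin.

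Factors of protein synthesis were the group with the largest share of falls, 23 of 38 measured members lower (60.5%, against 14.1%) and 1 higher, with a median difference of -0.45. The differences were mostly under 1. Of 16 measured symbols for subunits of initiation factor 3, which prepares the small ribosomal subunit, 9 were lower and 7 not called, with eif3l at 80.1, 75.4 and 82.0 TPM against 119, 169.8 and 144 TPM (-0.85 ± 0.12, adjusted p = 0.00195) and eif3c at 50.9, 41.1 and 51.9 TPM against 70.0, 108 and 115 TPM (-0.99 ± 0.18, adjusted p = 0.00565). Eif4e, which binds the cap of messenger RNA, had the largest difference of the list at a low level, 1.28, 1.24 and 1.72 TPM against 7.23, 5.13 and 3.48 TPM (-1.34 ± 0.21, adjusted p = 0.00291). The hybrid lay below P. fulvidraco without overlap in each of the 3 genes.

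Some elongation and release factors were lower too. EEF2, which moves the ribosome along, was at 947, 786 and 862 TPM against 1141, 1306 and 1246 TPM (-0.51 ± 0.09, adjusted p = 0.00476), and etf1, which ends translation, at 16.1, 16.4 and 19.6 TPM against 37.9, 32.8 and 29.5 TPM (-0.90 ± 0.14, adjusted p = 0.00269). P. vachelli, at 769 ± 45.4 TPM of EEF2 and 22.3 ± 3.41 TPM of etf1, was close to the hybrid. The elongation factor gene eef1g was not called (-0.06 ± 0.08, adjusted p = 0.634). Eif5 was the member that rose, at 141, 124 and 116 TPM against 97.8, 97.7 and 99.3 TPM (0.36 ± 0.09, adjusted p = 0.0159; 0.0519 without P. fulvidraco 2). The count depended on the libraries used: it was 13 lower without hybrid 2, 15 without hybrid 1, 14 without P. fulvidraco 2 and 13 without P. fulvidraco 1 and 2, and 18 of 33 where parental means were within 2-fold.

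Chaperones of the cytosolic heat shock list showed 14 of 28 measured members lower (50%) and 1 higher, with a median of -0.38. Among them were 6 of 8 measured subunits of the chaperonin ring that folds actin and tubulin, such as CCT5 at 34.3, 28.6 and 34.5 TPM against 43.7, 60.4 and 54.4 TPM (-0.68 ± 0.13, adjusted p = 0.00641). The J protein DNAJA2 was at 32.8, 30.8 and 29.8 TPM against 51.6, 53.5 and 57.1 TPM (-0.78 ± 0.09, adjusted p = 0.000521), with no overlap. HSPD1, a mitochondrial chaperone, is also among the 14. Its call was lost in 7 of 9 fits that left out a library (limma adjusted p up to 0.141). HSPB8, a small heat shock protein, was the one that rose, at 4.68, 5.14 and 5.21 TPM against 0.400, 0.340 and 0.150 TPM, with 10.0 ± 0.899 TPM in P. vachelli. Over all symbols the lower calls went from 1524 to 931 without hybrid 2 and to 937 without P. fulvidraco 2. Here too the count fell with fewer libraries, to 5 lower without hybrid 2 or without P. fulvidraco 2, 6 without hybrid 1, 9 without P. fulvidraco 1 or P. vachelli 3, 6 without P. fulvidraco 1 and 2, 9 with the replicate block and 6 in a fit of the hybrid and P. fulvidraco alone.

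Amino acid breakdown moved both ways, with 14 of 55 measured members higher (25.5%) and 11 lower (20%). The members that rose most were the symbols Csad and GADL1, whose shared description is that of an enzyme of taurine synthesis. Csad, cysteine sulfinic acid decarboxylase, stood at 277, 507 and 476 TPM against 35.4, 59.4 and 34.8 TPM (3.25 ± 0.29, adjusted p = 0.00017), a ratio of means of 9.73. GADL1, whose row carries the same description, was at 92.8, 131 and 144 TPM against 16.2, 22.0 and 12.9 TPM (2.79 ± 0.26, adjusted p = 0.000223). With P. vachelli at 58.4 ± 12.4 and 16.3 ± 4.63 TPM, the 2 symbols were far above the level of either parent in all 3 hybrid libraries. Both kept their call in each alternative run, though with rows summed per description they share the same sum. Whether they are separate genes was not tested. The step before them, cysteine dioxygenase cdo1, was at 482, 636 and 418 TPM against 222, 293 and 429 TPM (0.73 ± 0.23, adjusted p = 0.0497), with groups that overlapped. Leaving out a library other than hybrid 3 or P. fulvidraco 3 ended the cdo1 call (adjusted p = 0.0649 to 0.15).

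Tryptophan breakdown was mixed. Tryptophan dioxygenase tdo2b fell from 521, 611 and 734 TPM to 273, 199 and 260.2 TPM (-1.34 ± 0.21, adjusted p = 0.00294). Kynurenine formamidase afmid rose from 14.7, 14.9 and 21.4 TPM to 47.9, 51.0 and 44.7 TPM (1.46 ± 0.15, adjusted p = 0.000364), and kynurenine monooxygenase kmo from 109, 106 and 127 TPM to 218, 244 and 201 TPM (0.95 ± 0.10, adjusted p = 0.000406). In these 3 genes the hybrid lay between the parental means, P. vachelli having 123 ± 35.6, 67.6 ± 6.73 and 307 ± 12.7 TPM. Kynureninase Kynu, which acts after kmo, fell from 122, 109 and 114 TPM to 88.8, 62.9 and 89.8 TPM (-0.53 ± 0.14, adjusted p = 0.0234; 0.0511 and 0.063 in the fits without P. fulvidraco 1 or P. fulvidraco 2), and haao was not called (-0.25 ± 0.10, adjusted p = 0.0957).

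Tyrosine breakdown was similarly mixed, with fumarylacetoacetase FAH, its last enzyme, lower (-0.86 ± 0.14) and hpd and Hgd, which act before it, higher (0.63 ± 0.13 and 0.95 ± 0.25). Urea cycle genes that were called were lower: ass1 at 1.30 to 2.10 TPM against 4.43 TPM or more, OTC at 1.80, 1.19 and 2.39 TPM against 10.2, 5.72 and 3.21 TPM, and ARG1 at 228, 217 and 189.6 TPM against 238, 359 and 443 TPM. Only the fit without P. fulvidraco 1 kept the ARG1 call of those that left out 1 library (adjusted p up to 0.116 in the others), and the calls on OTC and Hgd were lost without hybrid 2 (0.0623 and 0.0811), OTC also without P. fulvidraco 2 (0.0519) and Hgd without hybrid 1 (0.0549). The alanine aminotransferase symbol Gpt2 was lower at 24.5, 24.4 and 23.1 TPM against 48.9, 52.2 and 52.9 TPM, but 7 rows of that description, some with the symbol gpt2l, summed to 569, 620.0 and 552 TPM against 360.4, 430.1 and 392 TPM and were called higher (0.56 ± 0.09, adjusted p = 0.00304).

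Sugar metabolism had 5 of 33 measured members higher (15.2%) and 4 lower (12.1%), near the background. The regulatory protein GCKR was at 9.07, 5.43 and 10.8 TPM against 3.11, 4.06 and 3.97 TPM (0.96 ± 0.23, adjusted p = 0.0174), and the glycogen branching enzyme GBE1 at 39.0, 44.7 and 40.6 TPM against 22.3, 24.7 and 28.9 TPM (0.70 ± 0.11, adjusted p = 0.00251). Pck1, a control point of glucose production, was at 149, 128 and 167 TPM against 225, 342 and 243 TPM (-0.84 ± 0.26, adjusted p = 0.0416). The Pck1 call was lost in 7 of 9 fits that left out a library (adjusted p up to 0.13), all but those without P. vachelli 1 or 2, and the GCKR call without hybrid 1 (0.0546) or P. fulvidraco 1 (0.0536).

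Genes of fat synthesis and storage had 7 of 24 measured members higher (29.2%, against 10.7%) and 3 lower. The liver fatty acid binding protein fabp1, among the most abundant transcripts of the liver, was at 10460.0, 11498 and 11460.0 TPM against 3876, 5431 and 7032 TPM (1.07 ± 0.18, adjusted p = 0.00358), and above the 6765 ± 331 TPM of P. vachelli. The elongases of long polyunsaturated fatty acids rose, elovl5 to 339, 451 and 316 TPM from 105, 88.9 and 97.7 TPM (1.90 ± 0.13, adjusted p = 4.79e-05) and Elovl2 to 153, 166 and 161 TPM from 135, 64.9 and 58.4 TPM (0.99 ± 0.26, adjusted p = 0.0263). Fatty acid synthase FASN, at 7.85, 10.9 and 12.9 TPM against 7.22, 5.21 and 3.13 TPM, malic enzyme ME1, the glucose-responsive factor MLXIPL and dgat2, which completes triglycerides, rose by 0.62 to 0.93. Among the members that fell, Pnpla2, the lipase that opens stored triglyceride, was at 11.4, 8.02 and 12.6 TPM against 55.0, 43.9 and 41.5 TPM (-2.05 ± 0.20, adjusted p = 0.000287), with 4.89 ± 1.08 TPM in P. vachelli. The phosphatidate phosphatase Lpin2 and the droplet protein Cideb differed by -1.33 ± 0.31 and -0.60 ± 0.12. Calls on Elovl2 (adjusted p up to 0.0893), FASN (up to 0.078) and MLXIPL (up to 0.119) were lost without hybrid 2, hybrid 3, P. fulvidraco 2 or P. fulvidraco 3, Elovl2 also without hybrid 1 and MLXIPL without P. fulvidraco 1 or P. vachelli 2.

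**Figure D5:**
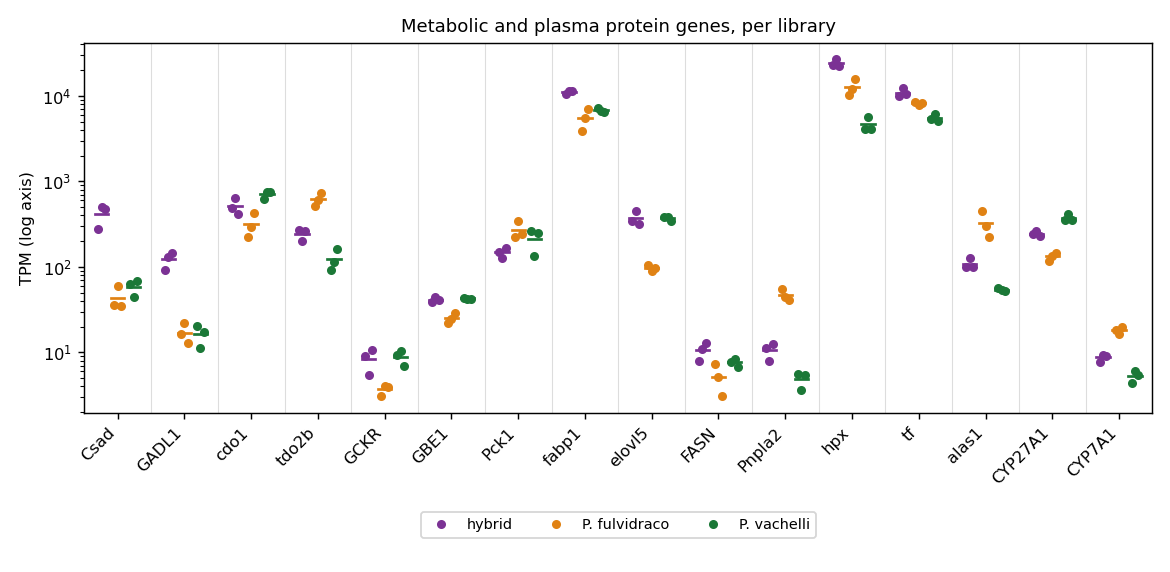
Points are TPM per library on a log axis and bars the means, for 16 genes of amino acid, sugar, fat, plasma protein, heme and bile acid metabolism in the hybrid (purple), P. fulvidraco (orange) and P. vachelli (green). Csad and GADL1 stand above both parents in every hybrid library, and elovl5, Pnpla2 and CYP7A1 lie nearer to P. vachelli.

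Fatty acid oxidation showed 5 of 30 members higher (16.7%, against 10.7% of all symbols) and 4 lower (13.3%, against 14.1%). Medium-chain dehydrogenase ACADM was lower at 98.8, 93.4 and 106 TPM against 184, 189.6 and 179 TPM (-0.89 ± 0.09, limma adjusted p = 0.000298). The groups did not overlap in ACADM.

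Sterol and bile acid genes had 7 of 34 measured members higher (20.6%, against 10.7%) and 1 lower, with a median difference of 0.48. The members called most clearly act in bile acid synthesis and sterol export. Sterol 27-hydroxylase CYP27A1 was at 242, 263 and 230.4 TPM against 118, 133 and 146 TPM (0.89 ± 0.10, adjusted p = 0.000768), and Cyp7b1 and the exporter subunits ABCG5 and Abcg8 rose by 0.59 to 0.68. CYP7A1, the rate-limiting enzyme of the main route from cholesterol to bile acids, was the member that fell, from 18.2, 16.3 and 19.6 TPM to 7.66, 9.41 and 9.08 TPM (-0.97 ± 0.13, adjusted p = 0.0016).

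The enzymes of cholesterol synthesis itself were high in P. fulvidraco 1. Squalene epoxidase SQLE, at 30.1, 13.3 and 18.9 TPM against 31.9, 5.99 and 1.10 TPM, was not called (adjusted p = 0.244). Sc5d, a late step of the pathway, passed at 112, 113 and 85.3 TPM against 76.8, 25.1 and 11.3 TPM (1.82 ± 0.56, adjusted p = 0.0424), a call kept in 1 of 9 fits that left out a library, the one without P. fulvidraco 1. The order of the P. fulvidraco libraries in SQLE and Sc5d is that of the vitellogenin share, whose part was not tested. Without P. fulvidraco 1 the list counted 20 higher and 1 lower of 34. Dropping P. fulvidraco 1 and 2 together left 15 higher and a median of 0.83. Leaving out hybrid 2, hybrid 3, P. fulvidraco 2, P. fulvidraco 3 or P. vachelli 3 alone left 4 higher, and where parental means lay within 2-fold 1 of 24 was.

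Of 13 measured members of the acute phase and metal carrier list, 6 were higher in the hybrid (46.2%, against 10.7%) and 1 lower. The transcript with the symbol hpx, described as warm temperature acclimation protein 65, a fish relative of the heme carrier hemopexin, was at 23018, 26580.0 and 22479 TPM against 10276, 12035 and 15574 TPM (0.95 ± 0.17, adjusted p = 0.00548), far above the 4639 ± 917 TPM of P. vachelli. Transferrin tf, the iron carrier, stood at 9872, 12259.8 and 10417 TPM against 8493, 7807 and 8132 TPM, with 5515 ± 559 TPM in P. vachelli (0.41 ± 0.10, adjusted p = 0.02). Transthyretin TTR, a thyroid hormone carrier, and AHSG, fetuin A, differed by 1.20 ± 0.26 and 0.59 ± 0.10. Tfr2 and LBP were the other higher members. Their calls were lost in 5 and 7 of 9 fits that left out a library (limma adjusted p up to 0.113 and 0.121). LBP changed sign with its description summed. The member that fell, the hemoglobin scavenger receptor CD163, was at 568, 374 and 562 TPM against 765, 874 and 872 TPM (-0.76 ± 0.16, adjusted p = 0.0107), while P. vachelli had only 5.30 ± 0.679 TPM. The call on hpx was lost under quantile normalization (difference 0.70, limma adjusted p = 0.0689). Without P. fulvidraco 1 and 2, hpx differed by 0.62 and CD163 by -0.82, and neither was called. The calls on AHSG, tf, Tfr2 and LBP were lost in that fit too. The list counted 3 higher without hybrid 2 or without P. fulvidraco 2, fits in which tf lost its call (limma adjusted p = 0.0607 and 0.064). With its description summed tf was not called either (0.30, limma adjusted p = 0.0756).

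Fibrinogen, the clotting precursor, was lower in each of its 3 chains. FGB was at 6977, 6944 and 7342 TPM against 11954, 10402 and 9684 TPM (-0.59 ± 0.09, adjusted p = 0.00282), and FGG and FGA differed by -0.32 ± 0.07 and -0.28 ± 0.07. P. vachelli had 9861 ± 758 TPM of FGB, so no hybrid library reached the mean of either parent. The small difference in FGA was not called without hybrid 1, 2 or 3 or P. fulvidraco 1 (adjusted p = 0.0509 to 0.0635), and FGA and FGG were not called under quantile normalization or median-ratio scaling. In the whole coagulation and serpin list 7 of 32 members were lower (21.9%) and 2 higher, one of them heparin cofactor SERPIND1, at 1440.2, 1366 and 1338 TPM against 784, 756 and 784 TPM (0.83 ± 0.07, adjusted p = 0.000116). Coagulation factor F5 was called lower as a symbol (-0.41 ± 0.08) and higher when its rows were summed per description (0.27 ± 0.07, adjusted p = 0.0254).

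Complement had 5 of 24 members higher (20.8%, against 10.7% of all symbols) and 3 lower (12.5%, against 14.1%), the lower share near the background. The pore protein C9 stood at 4115, 3706 and 3745 TPM against 1988, 1980.2 and 2101 TPM and 7923 ± 552 TPM in P. vachelli (0.93 ± 0.08, adjusted p = 0.000116), and clusterin CLU at 289, 365 and 335 TPM against 217, 164 and 151 TPM (0.90 ± 0.16, adjusted p = 0.00499). Factor B (CFB) and C5 fell by 0.47 and 0.40 on the log2 scale. The rise of the regulator C4BPA (1.16 ± 0.17) was not seen with its description summed (0.06, adjusted p = 0.717). C4, called lower as a symbol, was not called in that sum either (0.17, adjusted p = 0.17). The row behind the higher symbol Masp2 is described as haptoglobin-like, and its call was lost without hybrid 1, hybrid 2, P. fulvidraco 1 or P. fulvidraco 3 (adjusted p = 0.0698 to 0.0776).

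Lipoprotein genes counted 2 higher (11.8%, against 10.7% of all symbols) and 4 lower (23.5%, against 14.1%) of 17. The calls on apoeb and CETP, both higher, were lost in 7 and 6 of 9 fits that left out a library (limma adjusted p up to 0.112 and 0.141). The symbol APOA4, whose row is described as apolipoprotein A-I-like, was at 453, 419 and 645 TPM against 1352, 2022 and 1785 TPM, with 859 ± 79.6 TPM in P. vachelli (-1.77 ± 0.19, adjusted p = 0.000465). The symbol apoa1, described as apolipoprotein A-IV, stood at 523, 429.9 and 518 TPM against 1522, 1064 and 949.9 TPM (-1.24 ± 0.17, adjusted p = 0.0016). Both are components of high density lipoprotein and chylomicrons in vertebrates, and their groups did not overlap. Lipoprotein lipase LPL differed by -0.67 ± 0.12, and Apob lost its call as described above.

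Antioxidant enzymes split, with 7 of 27 members higher (25.9%) and 6 lower (22.2%). Among superoxide dismutases, cytosolic sod1 rose to 267, 334 and 306 TPM from 106, 97.8 and 137 TPM (1.41 ± 0.13, adjusted p = 0.000246) and extracellular SOD3 by 1.30 ± 0.13, while mitochondrial Sod2, at 58.8, 76.4 and 66.0 TPM against 73.2, 74.99 and 67.8 TPM, was not called. Peroxiredoxin PRDX6 was at 448, 530.3 and 447 TPM against 195, 219 and 216 TPM (1.17 ± 0.09, adjusted p = 6.96e-05), and methionine sulfoxide reductase msrb2 at 256, 269 and 294 TPM against 63.1, 62.1 and 84.0 TPM (1.96 ± 0.12, adjusted p = 2.33e-05). P. vachelli exceeded the hybrid in sod1, PRDX6 and msrb2, at 654 ± 33.0, 666 ± 13.6 and 492 ± 24.4 TPM. Selenoproteins moved both ways. GPX4, which reduces lipid peroxides, was at 695, 688 and 675 TPM against 1139, 1363 and 1449.6 TPM (-0.93 ± 0.10, adjusted p = 0.000368), plasma peroxidase Gpx3 fell by 0.59 on the log2 scale, and the selenium carrier sepp1a by 0.77. The thioredoxin reductase TXNRD3 rose to 35.9, 21.7 and 16.6 TPM from 10.2, 8.60 and 8.87 TPM (1.27 ± 0.25, adjusted p = 0.0073), and GPX1 and Txnrd2 were not called. P. vachelli had 681 ± 40.8 TPM of GPX4, within the range of the hybrid libraries.

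Enzymes that handle foreign compounds also split. Of 23 conjugating and flavin enzymes 6 were higher (26.1%) and 7 lower (30.4%), above the background on both sides. Glutathione transferase GSTM3 was at 72.2, 90.4 and 79.8 TPM against 15.8, 11.3 and 15.5 TPM (2.43 ± 0.14, adjusted p = 1.43e-05), and aldehyde oxidase AOX1 at 188, 178 and 167 TPM against 356, 375 and 349.9 TPM (-1.02 ± 0.13, adjusted p = 0.00117). The hybrid lay between the parents in both, with 206 ± 12.2 and 44.3 ± 8.51 TPM in P. vachelli. Of 16 cytochrome P450 genes, cyp2k4 and cyp3a30 rose and cyp3a40 and cyp3a27 fell, cyp3a30 to 33.9, 24.7 and 29.1 TPM from 2.29, 3.45 and 2.41 TPM (3.03 ± 0.15, adjusted p = 7.17e-06). Close relatives in the CYP3A family may share reads, and how these were divided is not given.

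The heme synthesis list, which also holds heme oxygenase HMOX2, counted 2 of 13 higher (15.4%, against 10.7% of all symbols) and 1 lower (7.69%, against 14.1%). The lower gene was alas1, the rate-limiting enzyme, at 99.3, 127 and 98.5 TPM against 451, 304 and 226 TPM, with 54.1 ± 1.87 TPM in P. vachelli (-1.54 ± 0.22, adjusted p = 0.00181). HMOX2 rose from 3.82, 3.52 and 4.44 TPM to 11.4, 11.9 and 14.0 TPM (1.45 ± 0.12, adjusted p = 0.000101). ALAD, the other higher member, had a hybrid to P. fulvidraco ratio of means of 1.33. Its call was lost in 8 of 9 fits that left out a library (limma adjusted p = 0.0636 to 0.101).

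Ribosomal protein genes differed singly and not as a group, with 11 of 75 higher and 11 lower, 14.7% each way, and a median of -0.01. RPL29 had the largest difference, at 1745, 1913 and 1255 TPM against 77.0, 62.3 and 74.5 TPM and 2612 ± 215 TPM in P. vachelli (4.49 ± 0.16, adjusted p = 1.52e-06). RPL38 stood at 857, 839 and 471 TPM against 201, 170.3 and 128 TPM (2.08 ± 0.24, adjusted p = 0.000757). Rplp2 went down, to 657, 601 and 804 TPM from 1232, 1331 and 1277 TPM, with 48.4 ± 6.81 TPM in P. vachelli (-0.91 ± 0.13, adjusted p = 0.00172). How reads were divided among rows of similar sequence is not given, so single members are uncertain.

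Nuclear genes of oxidative phosphorylation leaned lower, 16 of 66 (24.2%, against 14.1%) against 5 higher, by small amounts (median -0.13). Complex I subunits led: NDUFA2 was at 111, 105 and 101 TPM against 174, 194 and 175 TPM, with 19.3 ± 1.21 TPM in P. vachelli (-0.77 ± 0.08, adjusted p = 0.000549), and ndufa4 at 582, 540.1 and 587 TPM against 785, 823 and 834 TPM (-0.51 ± 0.07, adjusted p = 0.00111). Where parental means were within 2-fold, 7 of 52 were lower and 2 higher. Leaving out P. fulvidraco 2 left 10 lower, and without P. fulvidraco 1 and 2, 3 were lower and 2 higher. The symbol Cox8a was called higher (0.51 ± 0.08), but its description summed over 3 rows was not (-0.21 ± 0.09, adjusted p = 0.109).

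Of the mitochondrial genome, mt-co1, mt-co2, mt-co3, mt-atp6 and mt-cyb were not called. A subunit of cytochrome c oxidase, mt-co2, was at 12134, 12186 and 12532 TPM against 11215, 12611 and 12809 TPM. Of the complex I subunits, MT-ND1, at 696, 801 and 659 TPM against 1040, 807 and 744 TPM, was not called (-0.25 ± 0.13, adjusted p = 0.18), and MT-ND2, MT-ND4, MT-ND5 and MT-ND6 were called lower, MT-ND2 at 1075, 1016 and 994 TPM against 1444, 1320.5 and 1333 TPM (-0.41 ± 0.07, adjusted p = 0.00536). P. vachelli stood above both groups in MT-ND2, at 1689 ± 109 TPM. The symbol MT-ND3, carried by 1 row, was listed at 0 in both groups, while P. vachelli had 1603 ± 36.9 TPM of it. Whether rows without the symbol hold this gene in the hybrid and P. fulvidraco was not tested, so the 0 does not show its absence.

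Interferon response genes were higher in 7 of 30 measured members (23.3%, against 10.7%) and lower in 2. The nuclease samhd1, which restricts viruses by depleting nucleotides, was at 4.64, 5.53 and 6.83 TPM and was listed at 0 in P. fulvidraco. IFI44L stood at 7.53, 9.13 and 10.7 TPM against 1.11, 0.970 and 2.35 TPM and 28.6 ± 3.82 TPM in P. vachelli (2.06 ± 0.22, adjusted p = 0.000435). The antiviral GTPase mx was at 6.08, 7.37 and 7.16 TPM against 3.87, 1.24 and 2.93 TPM, while P. vachelli had 0.737 ± 0.499 TPM (1.17 ± 0.30, adjusted p = 0.0213). In mx the hybrid was above both parents. The separate symbol mx1 was not called, with a hybrid to P. fulvidraco ratio of means of 1.22. The interferon regulatory factor IRF9 and the GTPase GBP1 fell by 0.41 and 0.52 on the log2 scale. The mx call was lost without hybrid 2, hybrid 3 or P. fulvidraco 2 (adjusted p = 0.0511 to 0.0643), the GBP1 call without any of the 6 libraries but hybrid 1 (0.0516 to 0.0869), and 3 members were higher without P. fulvidraco 1 and 2. Antigen presentation had 2 of 18 members higher and 1 lower, near the background.

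The growth hormone axis differed in few members, 2 of 29 higher and 2 lower (6.9% each way). The growth hormone receptor GHR was at 64.0, 51.9 and 57.8 TPM against 93.6, 79.1 and 78.2 TPM (-0.52 ± 0.13, adjusted p = 0.019), a call lost without hybrid 2 (adjusted p = 0.0672) and without P. fulvidraco 1 (0.0538). IGFBP3, a carrier of insulin-like growth factors, fell from 15.1, 14.6 and 17.3 TPM to 7.18, 11.8 and 8.06 TPM (-0.76 ± 0.17, adjusted p = 0.0116). The kinase akt1 rose by 0.70 at 1.16 to 3.83 TPM, with an adjusted p of 0.0586 without P. fulvidraco 3 and 0.0686 without P. fulvidraco 2. With its description summed akt1 was not called (0.85, limma adjusted p = 0.0518). The prolactin receptor PRLR was at 0.920, 3.43 and 0.990 TPM and listed at 0 in P. fulvidraco. The growth factor igf2 varied too much within groups for a call, at 127, 36.0 and 75.5 TPM against 63.8, 33.6 and 74.5 TPM.

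Among nuclear receptors and liver transcription factors 5 of 31 were lower (16.1%, against 14.1% of all symbols), near the background. Only 1 was higher (3.23%, against 10.7%), and the median difference was 0.05. The symbol Ppargc1a, whose rows are described as a peroxisome proliferator-activated receptor gamma coactivator relative, had the largest difference, at 5.94, 1.83 and 5.04 TPM against 27.4, 20.2 and 12.1 TPM and 9.62 ± 1.92 TPM in P. vachelli (-2.02 ± 0.37, adjusted p = 0.00558). Its P. fulvidraco levels ran in the order of the vitellogenin share, and it was not called without P. fulvidraco 1 and 2 (-1.41, adjusted p = 0.119). Cebpa, a factor for the differentiated hepatocyte, was at 15.1, 30.3 and 30.6 TPM against 50.4, 53.1 and 45.4 TPM (-1.01 ± 0.27, adjusted p = 0.0247), a call lost without P. fulvidraco 1 (0.0595) or 2 (0.0756). Vitamin D receptor vdrb differed by -0.91 ± 0.18.

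Of 24 clock and clock output genes 1 rose and 1 fell: the repressor Ciart was at 7.67, 11.5 and 7.48 TPM against 2.54, 1.86 and 2.14 TPM (1.62 ± 0.19, adjusted p = 0.000729; 0.62 and adjusted p = 0.082 with its description summed) and the output factor HLF at 19.1, 20.5 and 27.9 TPM against 31.1, 37.6 and 32.9 TPM (-0.58 ± 0.15, adjusted p = 0.0208). The HLF call was lost without hybrid 1, hybrid 2 or P. fulvidraco 2 (adjusted p = 0.0646 to 0.0762). The microRNA pathway had 1 of 12 members higher, the helicase mov10b.1 (1.43 ± 0.17), and 2 lower, among them Dgcr8, which finds primary microRNA hairpins (-0.82 ± 0.16). Proteasome genes (3 of 28 higher, 5 lower) and cell cycle genes (2 of 28 higher, 2 lower) were near or under the background, with the mitotic checkpoint kinase Bub1b at 17.8, 16.7 and 25.7 TPM against 3.87, 3.89 and 7.59 TPM (1.81 ± 0.25, adjusted p = 0.00145).

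Markers checked the tissue and the other cells it could hold. The labelled liver held hepatocyte markers at very high levels in both groups, with 18 measured genes summing to 71490.0, 76880.0 and 74650.0 TPM in the hybrid and to 66710.0, 65460.0 and 71150.0 TPM in P. fulvidraco, 4 of them higher and 6 lower. Antithrombin Serpinc1 was at 2061, 2036 and 2149 TPM against 2103, 2006 and 2263 TPM and was not called. Markers of pancreatic acinar cells, which lie inside the liver of many bony fishes, summed to 8740.0, 6613 and 6518 TPM in hybrid libraries and to 2674, 5732 and 6767 TPM in those of P. fulvidraco, with P. fulvidraco 1 lowest. Of 12 measured acinar genes 3 were higher, but 1 of them is Prss2, whose row is described as complement C1s. The call on the phospholipase PLA2G1B was lost in 7 of 9 fits that left out a library, all but those without P. fulvidraco 3 or P. vachelli 1 (adjusted p up to 0.116). Try3 and CELA2A, a trypsin and an elastase, were not called.

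Some blood and connective tissue markers also differed. Of 9 measured red cell genes 2 were higher (22.2%, against 10.7% of all symbols) and 1 lower (11.1%, against 14.1%), with a median difference of 0.02. The hemoglobin chain hba was at 6709, 4946 and 5776 TPM against 2249.8, 2606 and 3611 TPM (1.06 ± 0.20, adjusted p = 0.00634) and hbb differed by 0.69 ± 0.18, while the red cell membrane gene TMOD1 was lower (-1.36; not called without P. fulvidraco 2, P. fulvidraco 3 or P. vachelli 3, adjusted p up to 0.0943) and alas2, GATA1, RHAG and slc4a1 were not called. Without P. fulvidraco 1 and 2 neither hba (0.67, adjusted p = 0.123) nor hbb (0.41, 0.316) was called. The hbb call was also lost without hybrid 1, hybrid 2, P. fulvidraco 1 or P. fulvidraco 2 (adjusted p = 0.0517 to 0.0786). Of 18 genes of stellate cells and fibroblasts 6 were higher (33.3%), among them collagen COL1A1 at 88.0, 138 and 180.4 TPM against 62.2, 72.7 and 77.9 TPM (0.87 ± 0.25, adjusted p = 0.0322) and periostin POSTN (1.56 ± 0.37; not called without P. fulvidraco 2, adjusted p = 0.0509). Fibronectin FN1, which hepatocytes secrete into plasma, was the member that fell, to 1679, 1682 and 1781 TPM from 3027, 2986 and 3075 TPM (-0.82 ± 0.07, adjusted p = 9.99e-05). Without P. fulvidraco 1 and 2 no gene of this list was called higher by limma and 1 was lower, 10 were higher without hybrid 1, and 3 without any 1 of the other 5 libraries of the comparison, where COL1A1 was not called (adjusted p = 0.051 to 0.0891).

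White blood cell markers were sparse: 1 of 11 macrophage genes was higher and CD163 lower, 2 of 9 granulocyte genes were higher, led by the collagenase MMP13 (2.08 ± 0.15), and 1 of 8 T and NK cell genes and 1 of 5 B cell genes were higher. The T and NK cell gene, LCK, lost its call in 8 of 9 fits that left out a library (limma adjusted p = 0.056 to 0.143). The summed level of the granulocyte list was 60.1, 64.3 and 74.8 TPM in the hybrid and 36.6, 41.1 and 41.0 TPM in P. fulvidraco. Muscle, kidney and ovary lists had 0 of 16 measured members called by limma, and 3 at an unadjusted p under 0.05. The part of any of these cell types in the gene groups above was not tested.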

How the data were processed

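Poly(A) RNA of juvenile liver was sequenced in paired ends. Expression values were deposited by the authors as TPM per assembled transcript, with a gene symbol and a protein description, per the file headers. The submitters' processing notes name cutadapt and FastQC. Which aligner, quantifier and assembly settings were used is not stated by any source here. One extraction label speaks of an adipose type where the tissue label says liver. Rows at 1 TPM or more in at least 3 of 9 libraries were kept, and rows sharing a symbol, ignoring case, were summed. The log2(TPM + 1) values of all 9 libraries entered 1 limma fit (limma 3.58.1, R 4.3.3, trended variance, 6 residual degrees of freedom, two-sided, Benjamini-Hochberg adjustment over all rows or all symbols, threshold 0.05), tested on simulated data. Every adjusted p in the text is from limma. Depth is unknown and no count test was run.

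By rule, the text names 12 called symbols that rose most and 12 that fell most, with at least the median level and groups that do not overlap, up to 4 called members of each of 44 lists by smallest p, the 5 rows each way by the same rule, and further list members for their value. A few symbols that the rule takes are counted in their lists but not reported here by name. Members and lists were chosen with earlier results of these data known.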

Additional observations from a re-analysis of the deposited data

How the results depend on the processing

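Without P. fulvidraco 1 and 2, which leaves 1 P. fulvidraco library assumed to vary like the other groups, 3579 rows (2111 higher, 1468 lower) and 991 symbols (484 higher, 507 lower) were called. Leaving out 1 library gave 7312 to 10546 rows (4164 to 5772 higher, 3148 to 5106 lower) and 1692 to 2547 symbols (755 to 1071 higher, 931 to 1652 lower), fewest without P. fulvidraco 2. A minimum difference of 1 left 6873 rows (2510 lower) and 678 symbols (418 higher, 260 lower). A filter of 5 TPM left 6506 rows (3192 higher, 3314 lower), and 1 TPM or more in both parental species 3826 rows (1666 higher, 2160 lower). Parental means within 2-fold, added after seeing the data, left 965 rows (258 higher, 707 lower) and 942 symbols (248 higher, 694 lower). Fitting the hybrid and P. fulvidraco alone gave 3334 lower rows. Median-ratio scaling moved the share of higher calls among symbols from 43% to 51.2%. With a replicate block 2293 symbols were called (1005 higher, 1288 lower). Deviations of each gene from its group mean correlated between same-numbered hybrid and P. fulvidraco libraries at 0.0419, 0.0292 and -0.0098. Libraries of different number gave -0.0558 to 0.0298, and whether the numbers mark a shared batch was not tested.

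Differences that changed sign with a filter of 5 TPM were AHSA1 (0.22) and MCCC1 (-0.45). EBP did so without P. fulvidraco 1 (single libraries left out gave -0.63 to 0.71) and without both (1.05). With rows summed per description, also added after seeing the data, the sign changed for ATP5G1 (0.45), C4 (0.17), COX8A (-0.21), F5 (0.27), GPT2 (0.56), LBP (-0.0040), MGST3 (0.0197), PKLR (-0.37), PSMC1 (0.0349), SERPINA10 (-0.33), SERPINA6 (-0.0804) and UGT2A1 (-0.88). The cause of these changes was not tested. Of 294 called symbols reported among the lists and named genes, 186 kept their call whichever library was left out, and 146 kept it without both.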
